A study of Mus musculus with 6 samples.

Results

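Double negative (DN) T cells of the kidney, which carry an αβ T cell receptor but neither CD4 nor CD8, were compared between ischemic (IR) and normal (control) mouse kidneys, and each change was set beside the same change in CD4+ and CD8+ T cells. Members were the barcodes of the IR DN and control DN libraries with at least 500 detected genes, at most 20% mitochondrial UMIs and at least 1 UMI over Cd3d, Cd3e and Cd3g, which encode chains of the T cell receptor complex. A UMI (unique molecular identifier) stands for 1 captured RNA molecule. The rule kept 3951 of 4705 IR DN barcodes and 9309 of 9525 control DN barcodes, 13260 cells of the 49177 that passed in all 6 libraries. All libraries came from male WT C57BL/6J mice aged 7 to 8 weeks, and live CD45+ TCRβ+ cells had been sorted from digested kidneys into CD4, CD8 and DN fractions. In IR mice both renal pedicles had been clamped for 30 min, and serum creatinine was measured 24 h after ischemia. The time at which cells were taken for sequencing, the number of mice behind each library and whether control mice had sham surgery are not given in the sources used here. Each of the 6 groups (control and IR, in CD4, CD8 and DN) had 1 library, so no difference has a replicate check and no test was run. All intervals are 95% intervals that cover counting error only.

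DN T cells are a small share of T cells in blood and lymph nodes but a prominent one in the kidney, where subsets with the NK1.1 (Klrb1c) or PD-1 (Pdcd1) receptor are known. T cells taken from tissue respond to receptor and stress signals within minutes to hours with immediate early genes, and these signals run through MAP kinases, which the phosphatase DUSP1 and the Sprouty proteins switch off again. IL-7 receptor signals sustain resting T cells, while TIGIT is an inhibitory receptor that competes with the activating receptor CD226 for shared ligands.

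Depth differed between the sides. The median was 8554 UMIs and 3018 genes per control DN cell but 1520 UMIs and 798 genes per IR DN cell, and the CD4 and CD8 libraries differed in the same direction. Levels are given as CPM, which are UMIs of a gene per 1000000 UMIs summed over the cells of a library, with mitochondrial genes, ribosomal protein genes and Malat1 left out. These totals were 69741312 UMIs for control DN and 4815075 for IR DN, so that the 3 counts that a count of 0 allows correspond to 0.043 and 0.623 CPM. Ribosomal protein genes took 16.8% of control DN UMIs and 27.7% of IR DN UMIs. The control files name another Cell Ranger version (5.0.1) than the IR files (6.0.1), and condition, version and depth cannot be told apart within a pair. The sort held: Cd4, Cd8a and Cd8b1 together reached 1.78 CPM in control DN and 2.70 CPM in IR DN, while the same 3 genes reached 2201 CPM in control CD8. A pooled level cannot separate fewer positive cells from less RNA per cell. Some barcodes were found in more than 1 library of the same condition, 35 among kept IR DN cells and 104 among kept control DN cells. Kept IR DN cells shared 15 barcodes with kept IR CD4 cells and 13 with kept IR CD8 cells. Across conditions they shared 13, 6 and 8 with kept control CD4, CD8 and DN cells.

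In IR DN cells Dusp1, Spry2 and 9 of 18 immediate early genes stood higher, and 9 of 15 heat shock genes and 6 of 12 cell cycle genes stood lower. A gene was tested when it reached 10 CPM in at least 1 DN library, and called higher or lower when IR DN differed from control DN by a factor of 2 or more, a count under 3 being set to 3. Of 9228 genes, 756 (8.19%) were higher and 967 (10.5%) lower. In CD4 cells 658 of 9077 genes (7.25%) were higher and 1306 (14.4%) lower, and in CD8 cells 684 of 9148 (7.48%) were higher and 1594 (17.4%) lower. The median log2 ratio of IR over control was −0.27 for DN, −0.24 for CD4 and −0.38 for CD8 over the genes tested in DN. The split between higher and lower depended on scaling: higher genes were 43.9% of the DN calls, 34.4% with TMM scaling, 25.2% with the left-out features kept in the totals and 70.9% after centring on the median. A change was counted as larger in DN when it exceeded the CD4 and the CD8 change in the same direction by at least a further factor of 2. Of 9227 genes with a ratio in every pair, 48 (0.52%) were higher and larger in DN and 15 (0.163%) were lower and larger in DN. In cells thinned to 500 UMIs these counts were 58 and 36, with 19 of the 48 and 6 of the 15 among them. At the limit, the smaller of both log2 differences was 1.004 for Gm11707 and 1.02 for Ramp3, just inside, and 0.98 for Adam8, just outside. Only 2 genes (0.0217%), Tigit and Cd101, were called in DN and called in the opposite direction in another pair, in both cases CD8.

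**Figure D1:**
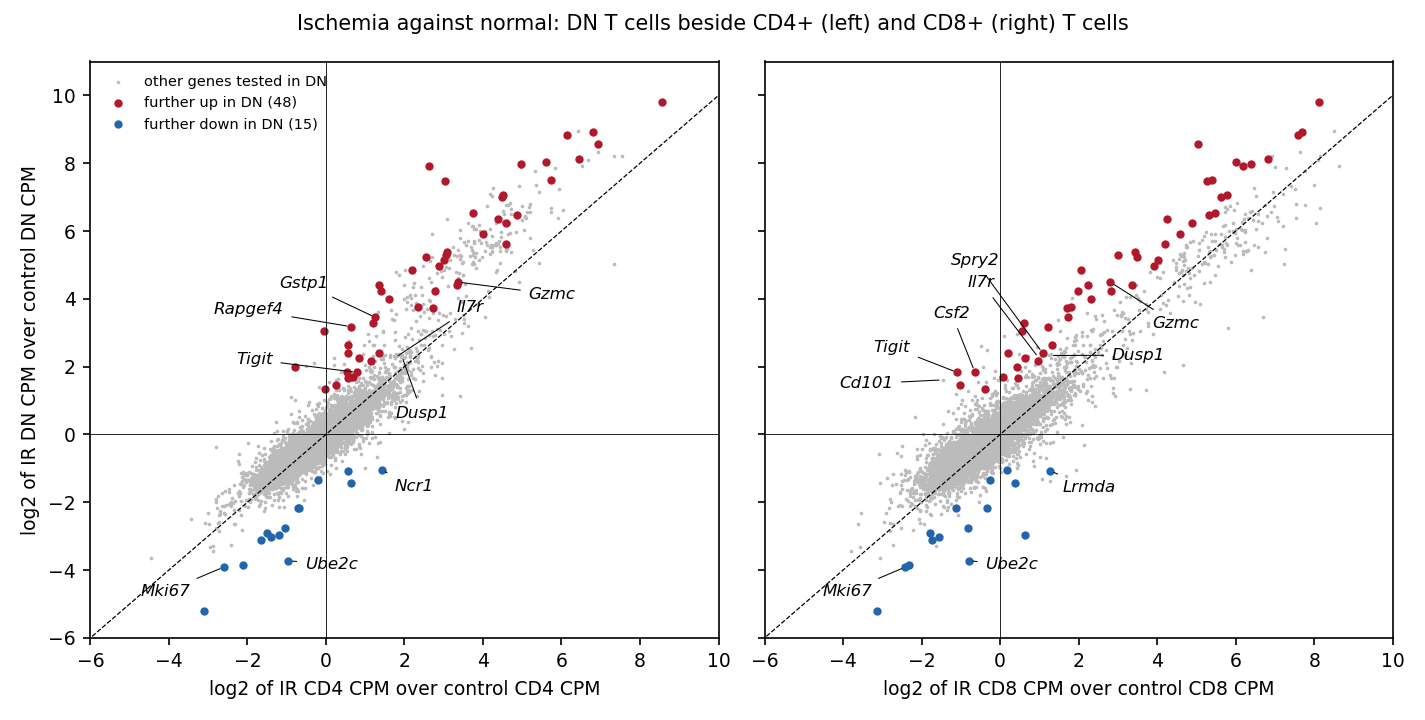
Log2 ratio of IR over control CPM in DN cells (vertical axis) against the same ratio in CD4 cells (left) and CD8 cells (right), 1 point per gene tested in DN, with the dashed line marking equal change. The 48 red and 15 blue genes lie at least 1 log2 unit further out for DN than for CD4 and CD8, and Tigit and Cd101 lie on opposite sides of 0 in DN and CD8.

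Dusp1 encodes a nuclear phosphatase that inactivates the MAP kinases p38, JNK and ERK, and its gene lies at chr17:26505590-26562128 on the minus strand (GRCm38). Control DN cells had 568 CPM (562 to 573), IR DN cells 2851 CPM (2804 to 2899). The CD4 levels were 450 and 1713 CPM, and the CD8 levels 277 and 660 CPM, in the same order. IR DN was thus the highest of the 6 libraries and control CD8 the lowest, and the order DN, CD4, CD8 was the same in both conditions. The log2 ratio of IR over control was 2.33 for DN, 1.93 for CD4 and 1.25 for CD8. The DN change was within a factor of 2 of the CD4 change, and Dusp1 was not among the 48 genes. Because deeper cells hold more positive cells, each cell was thinned to 500 UMIs before shares were compared. A Dusp1 UMI was then found in 23.4% (22.6 to 24.3) of control DN and 67.5% (66.0 to 68.9) of IR DN cells, against 18.5% and 46.8% of CD4 and 13.2% and 26.4% of CD8 cells. Without thinning the DN shares were 79.2% and 84.5%. Barcodes of the IR DN library without any T cell receptor or Cd3 UMI, 238 in number, held a Dusp1 UMI in 44.1% (37.7 to 50.7) of cases, below the kept cells of that library and above kept control DN cells. The median was 1413 UMIs over the barcodes without a Cd3 UMI in all libraries, and 1520 UMIs over kept IR DN cells. A barcode without a receptor UMI may still be a T cell, so these shares are a comparison and not a measured background.

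Upstream of Dusp1 lie letters of the cAMP response element (CRE, TGACGTCA), the site bound by the CREB family, shown because Dusp1 had the highest level among the MAP kinase feedback genes in IR DN cells (Dusp2 was above it in control DN, at 657 CPM). The 250 bases before the RefSeq start (GRCm38.p6, chr17:26508473-26508722, minus strand) read 5′ to 3′, with the CRE and its core TGACG in capitals:
Dusp1: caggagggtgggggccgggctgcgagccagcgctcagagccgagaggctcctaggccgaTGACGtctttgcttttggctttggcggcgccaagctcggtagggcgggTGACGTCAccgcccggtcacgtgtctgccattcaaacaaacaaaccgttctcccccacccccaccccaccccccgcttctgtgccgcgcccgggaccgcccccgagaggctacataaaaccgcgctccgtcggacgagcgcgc
The CRE covers positions 143 to 136 before the start, and a further TGACG lies at 191 to 187. On either strand of the 300-base window, the CRE was found for 3.83% of the 7280 tested genes with a RefSeq promoter, and TGACG for 38.8%. A match in the letters is a description and not evidence of binding.

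Il7r, the α chain of the IL-7 receptor (chr15:9505788-9530176, minus strand), had the lowest control level of the 3 subsets in DN cells. Control DN cells had 142 CPM (139 to 145), IR DN cells 677 CPM (654 to 701). CD4 cells went from 252 to 844 CPM and CD8 cells from 359 to 709 CPM. The 3 control levels spanned a wider range than the 3 IR levels, and DN had the largest log2 ratio (2.25, against 1.75 in CD4 and 0.98 in CD8) from the lowest start. The share of thinned cells with a UMI was 5.45% (4.99 to 5.93) in control DN and 24.6% (23.2 to 25.9) in IR DN. In IR CD4 and IR CD8 it was 30.5% and 28.3%. The 238 IR DN barcodes without a receptor UMI were at 21.8% (16.8 to 27.6), an interval that overlaps that of the kept cells (23.2 to 25.9), so the share is given as a value only. Other genes of the common γ chain receptors and their kinases differed less: of 11 tested, Il7r alone was higher and 0 were lower, where 8.19% of all genes were higher. In DN cells Il2ra went from 58.8 to 94.3 CPM and Il2rb from 654 to 522 CPM, neither by a factor of 2.

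Tigit (chr16:43648867-43664146, minus strand) was low in all libraries and changed in opposite directions in DN and CD8 cells. Control DN cells had 623 UMIs (8.93 CPM, 8.25 to 9.66), IR DN cells 153 UMIs (31.8 CPM, 26.9 to 37.2). CD4 cells had 16 and 27.7 CPM, and CD8 cells 30.4 and 14.2 CPM. Control CD8 and IR DN were thus the highest libraries, with intervals that overlap, and control DN was the lowest. The log2 ratio was 1.83 for DN, 0.79 for CD4 and −1.10 for CD8. Cd101, another inhibitory surface molecule, had the same pattern, with 11 and 33.6 CPM in DN, 15.7 and 24.5 CPM in CD4, and 30.8 and 11.2 CPM in CD8. Thinned shares for Tigit were 0.322% (0.217 to 0.460) in control DN and 1.75% (1.36 to 2.21) in IR DN. The IR DN barcodes without a receptor UMI were at 2.52% (0.931 to 5.41). That interval covers the one of the kept IR DN cells, so their share is not read as expression. For Cd101 the shares were 2.05% (1.63 to 2.54) in kept IR DN cells and 1.68% (0.460 to 4.25) in those barcodes, with intervals that overlap, and are likewise values only. Without thinning the DN shares reversed, at 5.29% in control and 3.52% in IR. The Tigit change was no longer larger in DN with TMM scaling, with at least 2 Cd3 UMIs required, or with barcodes holding a marker UMI of myeloid, B or erythroid cells left out.

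The 3 genes were then followed in cells of the known DN subsets, cut by a UMI of Klrb1c, Fcer1g (an Fc receptor adaptor) or Pdcd1 in thinned cells. A cell without such a UMI may still express the gene. Dusp1 was higher in each class: from 641 to 2704 CPM in cells with Klrb1c (911 control and 395 IR cells), from 477 to 2328 CPM with Fcer1g (721 and 396 cells), from 569 to 3023 CPM with Pdcd1 (102 and 43 cells) and from 621 to 3079 CPM with none of the 3 (7718 and 3198 cells). The Il7r ratio was smaller in the Fcer1g cells, which started higher, at 363 and 652 CPM, against 120 and 713 CPM in cells without Fcer1g. Tigit had 6 UMIs in control and 1 in IR among cells with Klrb1c, too few for a ratio, and 25 and 73 UMIs (5.95 and 41.1 CPM) in cells without it.

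**Figure D2:**
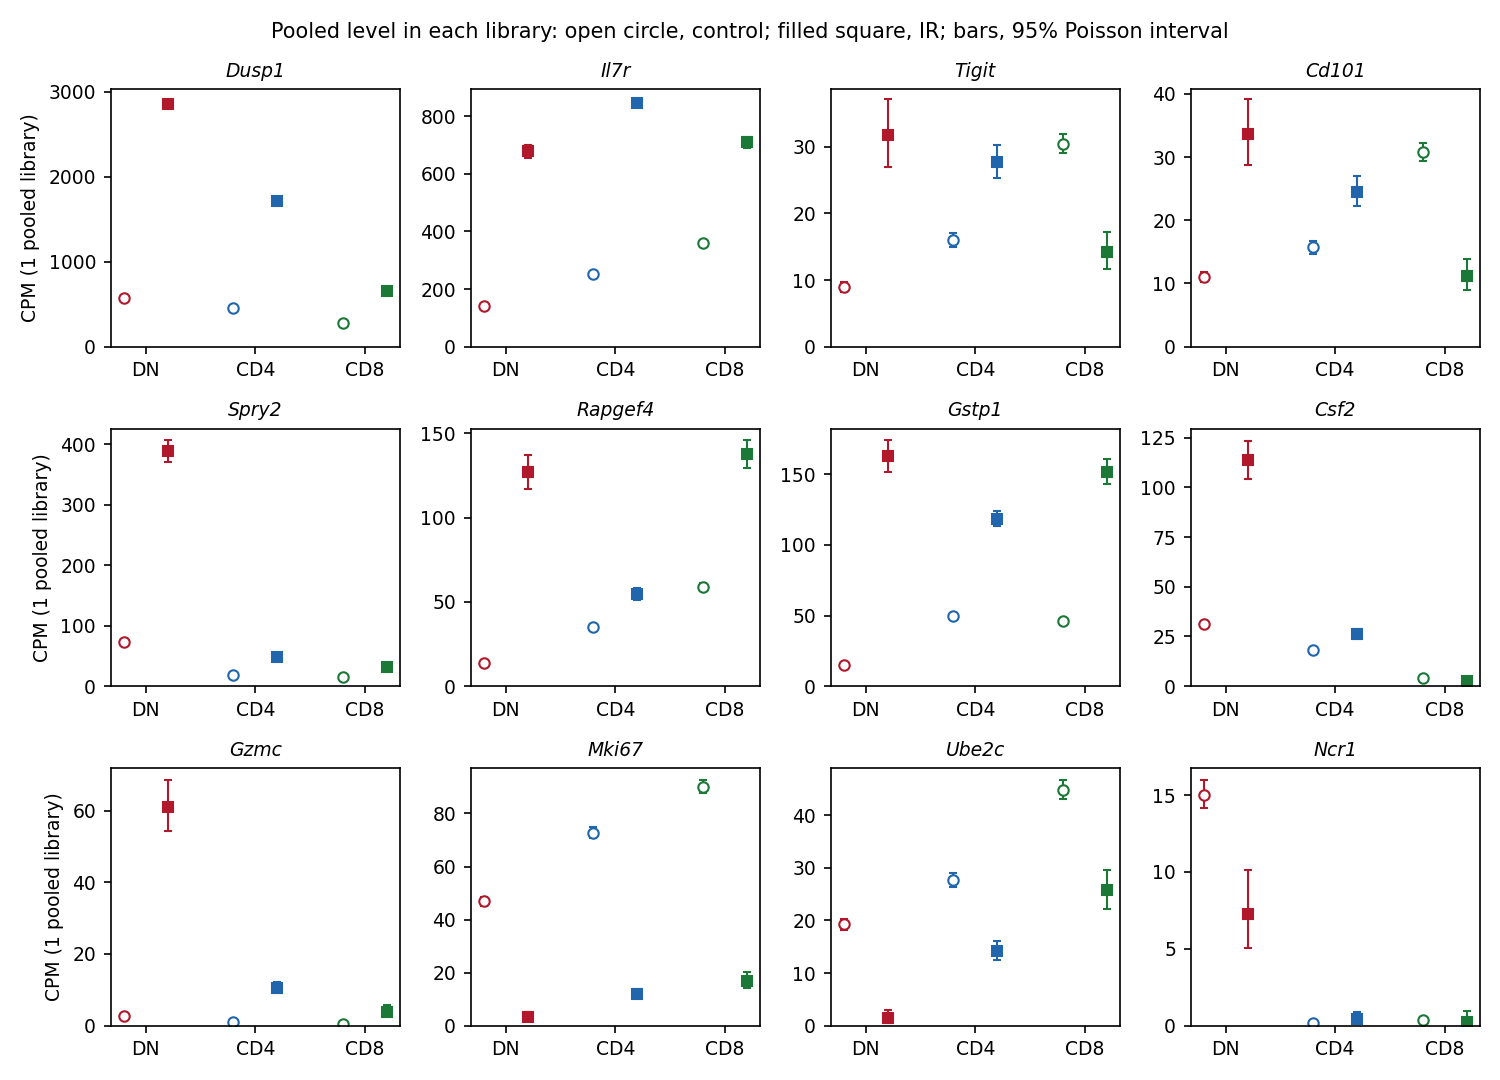
Pooled CPM of 12 genes in the 6 libraries on linear axes that start at 0, with control as open circles, IR as filled squares and bars giving the exact Poisson interval. IR DN is the highest library for Dusp1, Spry2, Csf2 and Gzmc, Tigit and Cd101 are lower in IR than in control for CD8 and higher for DN, and Mki67 and Ube2c are lowest in IR DN.

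Before the 48 higher genes are described, 2 features of the counts bear on them. First, 9 of the 48 had at least 25% of their IR DN UMIs in barcodes shared with another IR library: Tubb2b, Rgs7bp, Serpina3n, Auts2, Ppp1r1c, Uchl1, Ank3, Stmn2 and Apod. Apod, a lipid-binding secreted protein, held 185 of its 186 IR DN UMIs in shared barcodes, and 7 cells carried all of them. Second, 24 of the 48 had UMI totals within a factor of 1.5 of each other in the 3 IR libraries, although the pooled UMIs of these libraries differed up to 3.65-fold. Of the 24, Rgs7bp, Ank3 and Uchl1 were also among the 9, which leaves 21 with nearly equal totals alone. For Klhl14 the totals were 192, 157 and 178 UMIs in IR DN, CD4 and CD8, and for Aldh1a2, a retinoic acid synthesis enzyme, 191, 131 and 179. Such nearly equal totals give the shallowest library, IR DN, the highest CPM. Among all genes tested 2.35% had nearly equal totals, among the 756 higher genes 27.5%. The part of either feature in these results was not tested. The remaining 18 genes had neither, and these carry the description below. Both criteria were chosen after the data were seen.

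**Figure D3:**
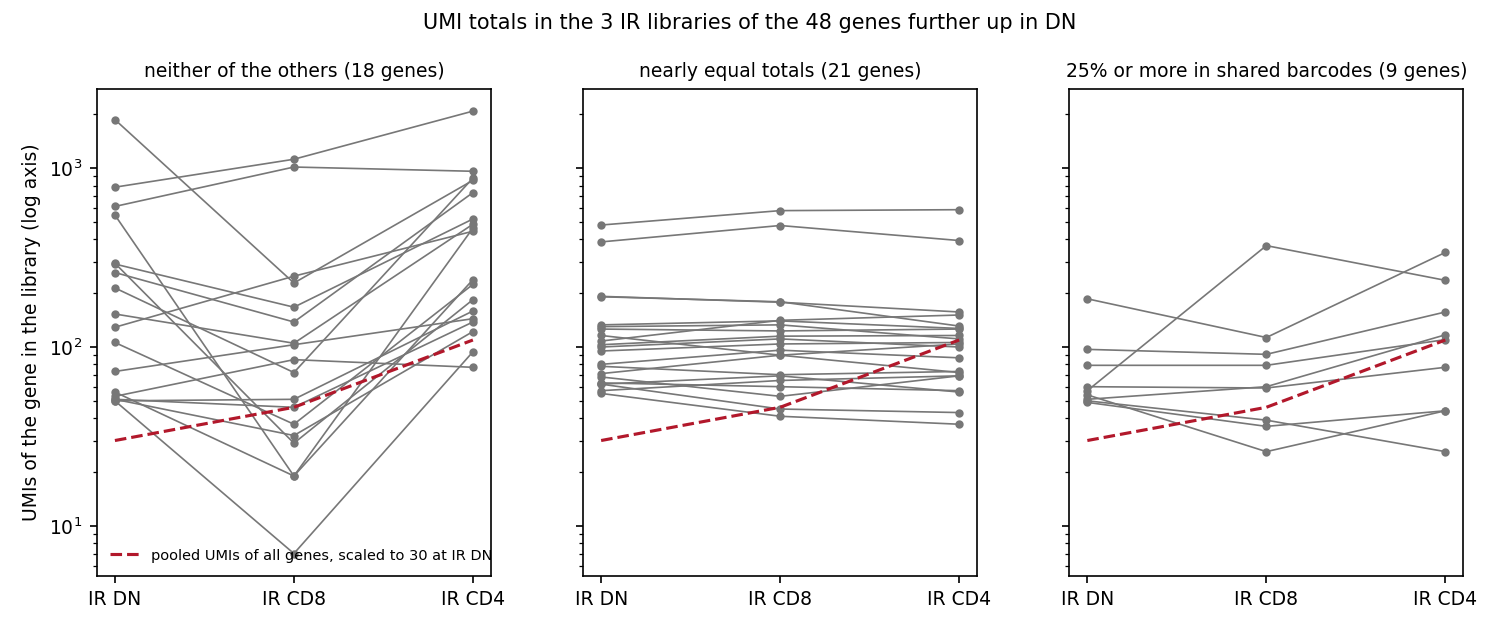
UMIs of each of the 48 genes in the IR DN, IR CD8 and IR CD4 libraries on a log axis, split into 18 genes with neither feature, 21 with nearly equal totals alone and 9 with at least 25% of UMIs in shared barcodes. The dashed red line shows how the pooled UMIs of all genes differ between the 3 libraries, and the middle panel runs flat against it.

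Among these 18, Spry2 had the highest level. Sprouty 2 is an inhibitor of receptor tyrosine kinase signals upstream of ERK, and its gene lies at chr14:105891947-105896819 on the minus strand. Control DN cells had 73.5 CPM (71.5 to 75.5), IR DN cells 388 CPM (371 to 406). CD4 cells had 19.03 and 48.7 CPM and CD8 cells 14.6 and 30.9 CPM. Control DN already exceeded all CD4 and CD8 libraries, and IR DN exceeded control DN 5.28-fold (5.01 to 5.57 by counting), against 2.56-fold in CD4 and 2.11-fold in CD8. Thinned shares were 3.54% (3.18 to 3.94) for control DN and 13.7% (12.6 to 14.8) for IR DN. The IR DN barcodes without a receptor UMI were at 9.66% (6.23 to 14.1), an interval that overlaps that of the kept cells, so the share is given as a value only. Cells with Fcer1g were highest, at 128 CPM in control and 768 CPM in IR, against 71.5 and 356 CPM in cells without. Spry2 passed the limit for a larger change in DN narrowly (1.05 on the log2 scale) and missed it with TMM scaling, without the Cd3 requirement and as a mean over cells. Of 9 MAP kinase phosphatase, Sprouty and Spred genes tested, 3 were higher (Dusp1, Spry2 and Dusp5, the last from 179 to 535 CPM) and 0 lower. Over all genes 8.19% were higher and 10.5% lower. The median log2 ratio of the 9 was 0.36, against −0.27 over all genes, and in CD4 and CD8 it was 0.65 and 0.45.

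Csf2 and Gzmc, which encode effector proteins, were higher in DN with UMIs in a small number of cells. Csf2 encodes GM-CSF, a cytokine that activates myeloid cells (chr11:54247271-54249667, minus strand). Control DN cells had 31.5 CPM (30.2 to 32.9), IR DN cells 114 CPM (104 to 124). CD4 cells had 18.2 and 26.3 CPM and CD8 cells 4.03 and 2.57 CPM. DN was the highest subset in both conditions, and CD8 did not share the direction. The IR DN level came from 547 UMIs in 174 cells, of which the 5 highest cells held 177. Thinned shares were 1.24% (1.02 to 1.48) in control DN and 2.40% (1.95 to 2.93) in IR DN, and 0.420% (0.0106 to 2.32) in IR DN barcodes without a receptor UMI, whose interval overlaps that of the kept IR DN cells, so the share is given as a value only. Cells with Klrb1c went from 10 to 28 UMIs (22 to 142 CPM) and cells without it from 30.5 to 75.4 CPM. Csf2 stayed larger in DN under each of the 14 alternatives of scaling, centring, cell selection and depth.

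Gzmc, a granzyme of cytotoxic granules (chr14:56231441-56234656, minus strand), had 2.71 CPM (2.34 to 3.13) in control DN cells. In IR DN cells it had 61.1 CPM (54.3 to 68.5), a 22.5-fold difference (18.7 to 27.2). CD4 cells had 1.02 and 10.47 CPM and CD8 cells 0.563 and 3.93 CPM. All 3 subsets went the same way and IR DN was far above the rest. The IR DN level came from 294 UMIs in 77 cells, and 5 cells held 123 of them. The thinned share was 1.01% (0.724 to 1.38) in kept IR DN cells. Of 238 IR DN barcodes without a receptor UMI, 0 held a Gzmc UMI (0 to 1.54%). These intervals overlap, so the share is given as a value only. Gzmc was not larger in DN once the 5% of barcodes with the most UMIs were removed. Of 9 granule genes tested, 3 were higher (Gzmc, Gzma and Serpinb9) and 1, the pore-forming Prf1, was lower (54.5 to 20.8 CPM), beside 8.19% higher and 10.5% lower over all genes. A full CRE stood in 1 of the 30 promoters found for the 48 genes (3.33%, against 3.83% of tested genes), that of Gzmc, shown for comparison with Dusp1 (chr14:56234658-56234907, minus strand, CRE in capitals):
Gzmc: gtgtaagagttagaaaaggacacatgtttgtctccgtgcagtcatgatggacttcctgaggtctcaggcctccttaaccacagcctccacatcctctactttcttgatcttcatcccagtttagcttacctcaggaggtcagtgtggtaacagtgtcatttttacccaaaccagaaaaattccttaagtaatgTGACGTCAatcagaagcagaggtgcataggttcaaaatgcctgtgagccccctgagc
The CRE covers positions 57 to 50 before the start. Spry2, Il7r and Tigit held no CRE and no TGACG in their 250 bases.

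Rapgef4, Gstp1 and Plaur had their lowest control level in DN cells. Rapgef4 (chr2:71981240-72257474, plus strand) encodes EPAC2, a cAMP-activated exchange factor for Rap GTPases, and had 14 CPM (13.2 to 14.9) in control DN cells, while IR DN cells had 127 CPM (117 to 137). CD4 cells had 35.1 and 54.7 CPM, CD8 cells 59.1 and 137 CPM. The DN difference was 9.05-fold (8.17 to 10.02), from the lowest of the control libraries to about the IR CD8 level. Gstp1, a glutathione transferase (chr19:4035407-4037985, minus strand), went from 14.8 to 163 CPM in DN, from 49.7 to 119 CPM in CD4 cells, and from 45.8 to 152 CPM in CD8 cells. Reads of Gstp1 may be shared with its near-identical neighbour Gstp2, so its level is uncertain. Plaur, the urokinase receptor, went from 1.42 to 26.8 CPM in DN and reached 25.3 CPM in IR CD4 and 33.7 CPM in IR CD8. Its thinned share was 1.49% (1.14 to 1.92) in kept IR DN cells and 3.78% (1.74 to 7.06) in the IR DN barcodes without a receptor UMI. The share in kept cells was not above that of these barcodes and is not read as expression. For Rapgef4 these shares were 5.69% (4.99 to 6.46) and 4.202% (2.03 to 7.59), with intervals that overlap. For Gstp1 they were 7.97% (7.15 to 8.86) and 2.10% (0.686 to 4.83), with intervals that do not overlap. The IR DN level was near IR CD8 for Rapgef4 and Gstp1 and near IR CD4 for Plaur.

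Ramp3, a partner of the calcitonin receptor-like receptor, went from 3.33 to 44.4 CPM in DN, from 7.60 to 50.1 CPM in CD4 cells, and from 2.997 to 9.75 CPM in CD8 cells. Its thinned share in kept IR DN cells, 2.23% (1.79 to 2.74), was not above the 2.52% (0.931 to 5.41) of IR DN barcodes without a receptor UMI. Mdk, which encodes the growth factor midkine, went from 72 to 106 UMIs in DN cells (1.03 to 22 CPM). CD4 cells had 1.26 and 12.8 CPM of Mdk and CD8 cells 1.05 and 5.01 CPM, and it was not larger in DN with TMM scaling or in thinned cells. Cd70, the ligand of the costimulatory receptor CD27, went from 1.06 to 10.4 CPM in DN, with 50 UMIs in 20 IR DN cells. CD4 cells had 2.32 and 5.35 CPM of Cd70 and CD8 cells 0.618 and 0.948 CPM, and it stayed larger in DN under 7 of the 14 alternatives. Cd83, an activation marker, went from 4.27 to 11.6 CPM in DN but from 5.23 to 2.57 CPM in CD8 cells. Its thinned share in kept IR DN cells was 0.380% (0.213 to 0.625). This was not above the 0.840% (0.102 to 3.002) of IR DN barcodes without a receptor UMI. The lincRNA Gm49980 went from 23.9 to 60.4 CPM in DN while both other subsets differed by less than 1.5-fold (30.4 and 29.6 CPM in CD4, 29.6 and 22.6 CPM in CD8), with thinned shares of 3.09% (2.57 to 3.68) in kept IR DN cells and 0.840% (0.102 to 3.002) in the barcodes without a receptor UMI, intervals that overlap. The others were Ptpro, Gm48606, Prag1, Gm39317, Casz1 and Gm11707, at 10.4 to 54.2 CPM in IR DN, and with Tigit these make 18. Across the 14 alternatives, 5 of the 18 stayed larger in DN throughout (Csf2, Gm49980, Gstp1, Plaur and Rapgef4), 2 of the 21 with nearly equal totals alone (the synaptic scaffold gene Dlg2 among them). The 9 with shared barcodes are not counted, since 1 alternative leaves those barcodes out.

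Of the 21 genes with nearly equal totals alone, the highest were Rap1gap2, a GTPase activator that switches Rap off (16.2 and 99.9 CPM in DN, 31.3 and 78.4 CPM in CD8), and Myo1h, an unconventional myosin (2.29 and 80.4 CPM in DN, 3.98 and 64.7 CPM in CD8). Their UMIs were spread over many cells, 433 of them for Rap1gap2 and 349 for Myo1h. Over all 48 genes the median level was 0.66 CPM in control DN and 19.9 CPM in IR DN, 42 were protein-coding, 9 reached 50 CPM, and 25 were called higher in neither CD4 nor CD8. Of these 25, 15 were at least 2-fold higher in 1 or both of these subsets but below 10 CPM there, such as Gm48606 (53.1-fold in CD4 and 42.2-fold in CD8). The median intronic length of the 48 was 70013.5 bases, against 20899.5 over all genes tested.

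Of the 15 lower genes, 10 are known for roles in cell division. They were grouped by hand after the values were seen, without a share over all genes to set beside them, and Mki67, Ccnb2 and Birc5 alone were in the list of 12 cell cycle genes. Ube2c, the ubiquitin-conjugating enzyme of the anaphase-promoting complex, went from 1342 UMIs (19.2 CPM, 18.2 to 20.3) to 7 UMIs (1.45 CPM, 0.5845 to 2.995) in DN cells. CD4 cells had 27.7 and 14.3 CPM and CD8 cells 44.9 and 25.7 CPM. IR DN was the lowest library by a wide margin, and the 13.2-fold DN difference stood against 1.94-fold in CD4 and 1.74-fold in CD8. Mki67, the proliferation marker Ki-67, went from 46.9 to 3.12 CPM in DN, from 72.8 to 12.01 CPM in CD4 cells, and from 90.1 to 16.9 CPM in CD8 cells. It was lower in all 3 subsets, by 15.04-fold in DN. The spindle and kinetochore genes Cenpf, Tpx2, Prc1, Cdca8 and Ndc80, the mitotic cyclin Ccnb2 (14.1 and 2.08 CPM), Birc5, which encodes survivin (17.9 and 3.95 CPM), and the replication-dependent histone gene Hist1h3c followed. Hist1h3c went from 1622 UMIs to 0 in DN cells, at least 37.3-fold lower against a floor of 3 counts, but its reads may be shared with near-identical histone genes. No division gene stayed larger in DN with the 5% of barcodes with the most UMIs removed, or as a mean over cells. In thinned cells only Ube2c and Birc5 of the 10 stayed larger in DN. The DN difference no longer exceeded the others for Cenpf, Tpx2 and Hist1h3c in thinned cells. With those top barcodes removed it did not for Cdca8 and Hist1h3c. All UMIs of a gene lay in 152 (Hist1h3c) to 650 (Ndc80) of the 9309 control DN cells, and the IR DN values rest on 0 to 29 UMIs.

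UMIs of division genes were also counted per cell. At 500 UMIs per cell, at least 2 of 10 division genes had a UMI in 81 control DN cells (0.870%, 0.692 to 1.08) and in 1 IR DN cell (0.0253%, 0.0006 to 0.141). In CD4 the cells numbered 128 (1.34%) and 31 (0.301%), and in CD8 236 (2.44%) and 24 (0.374%). The 10 were Top2a and the lower division genes above other than Ndc80, so their steeper difference in DN repeats the choice of genes and is a description. Without thinning the DN shares were 5.24% and 0.177%. With the 5% of barcodes with the most UMIs removed, 9 genes were lower and larger in DN in place of 15. On both lists were 5 genes, Efnb1, Serpinb5, Gm17655, Lrmda and Ncr1, and no division gene. Of 12 cell cycle genes tested 6 were lower and 0 higher, beside 10.5% lower and 8.19% higher over all genes. The median log2 ratio of the 12 was −1.01 for DN, −0.76 for CD4 and −0.57 for CD8. Over all genes tested in DN it was −0.27, −0.24 and −0.38. The 6 lower genes were Mki67, Top2a, Mcm3, Ccnb2, Birc5 and Stmn1. The replication genes Mcm2 (21.7 to 14.7 CPM), Mcm5 (29.2 to 17.7 CPM) and Pcna (187 to 227 CPM) differed by less than 2-fold.

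The promoters of Ube2c and Ccnb2 are shown because each held letters known from promoters of mitotic genes. The cell cycle homology region (CHR, TTTGAA) is the site of the DREAM and MuvB complexes, and CCAAT is the site of NF-Y. Among the 12 of 15 lower genes with a RefSeq promoter, 7 (58.3%) held TTTGAA and 9 (75.0%) held CCAAT on either strand, against 14.5% and 43.0% of tested genes. Birc5 held neither and Ndc80 no CCAAT, while CCAAT was also found for Efnb1, Lrmda and Serpinb5, which are not cell division genes. Both motifs were chosen after the data were seen. The 250 bases before the start, with both motifs and their reverse complements in capitals, lie at chr2:164769679-164769928 on the plus strand (Ube2c) and chr9:70421555-70421804 on the minus strand (Ccnb2):
Ube2c: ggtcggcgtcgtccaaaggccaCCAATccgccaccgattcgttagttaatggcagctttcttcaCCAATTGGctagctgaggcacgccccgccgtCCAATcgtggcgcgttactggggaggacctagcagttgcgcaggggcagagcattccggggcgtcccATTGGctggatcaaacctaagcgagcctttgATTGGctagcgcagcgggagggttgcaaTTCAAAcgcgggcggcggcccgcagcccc
Ccnb2: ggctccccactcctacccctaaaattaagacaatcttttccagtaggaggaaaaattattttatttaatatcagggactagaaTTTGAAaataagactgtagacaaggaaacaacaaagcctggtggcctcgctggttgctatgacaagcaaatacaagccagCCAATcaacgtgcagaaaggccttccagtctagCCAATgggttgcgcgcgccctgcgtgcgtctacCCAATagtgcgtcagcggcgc
In Ube2c the CHR lies on the reverse strand at 29 to 24 before the start, with 6 CCAAT matches, of which 2 overlap. In Ccnb2 the CHR lies at 167 to 162, with CCAAT at 87 to 83, 54 to 50 and 21 to 17.

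The other lower genes did not belong to cell division. Ncr1 encodes NKp46, a receptor of NK cells and some innate-like T cells, and had 15.03 CPM (14.1 to 15.97) in control DN cells, while IR DN cells had 7.27 CPM (5.06 to 10.1), with 0.170 to 0.455 CPM in the CD4 and CD8 libraries. CD4 cells had 10 and 8 Ncr1 UMIs, and CD8 cells 20 and 2 (0.363 and 0.271 CPM). Setting the 2 to 3 turned the CD8 ratio from lower to higher. The place of Ncr1 among the 15 depends on these few counts. In thinned DN cells with Fcer1g Ncr1 went from 31 to 8 UMIs (86 to 40.4 CPM). Serpinb5, a serpin, went from 26.8 to 9.97 CPM in DN, and 145 control DN cells held its 1866 UMIs, 344 of them in 5 cells, while the IR DN value rests on 48 UMIs in 12 cells, 34 of them in 5 cells. Efnb1, which encodes the ligand ephrin-B1, went from 16.3 to 2.08 CPM. Lrmda went from 33.7 to 15.99 CPM in DN but from 2.96 to 4.38 CPM in CD4 cells, and from 3.58 to 8.67 CPM in CD8 cells, and its IR totals were nearly equal (77, 77 and 64 UMIs in DN, CD4 and CD8). Gm17655 went from 11.3 to 2.49 CPM. Of the 15, Efnb1 and Serpinb5 stayed larger in DN under all 14 alternatives.

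**Figure D4:**
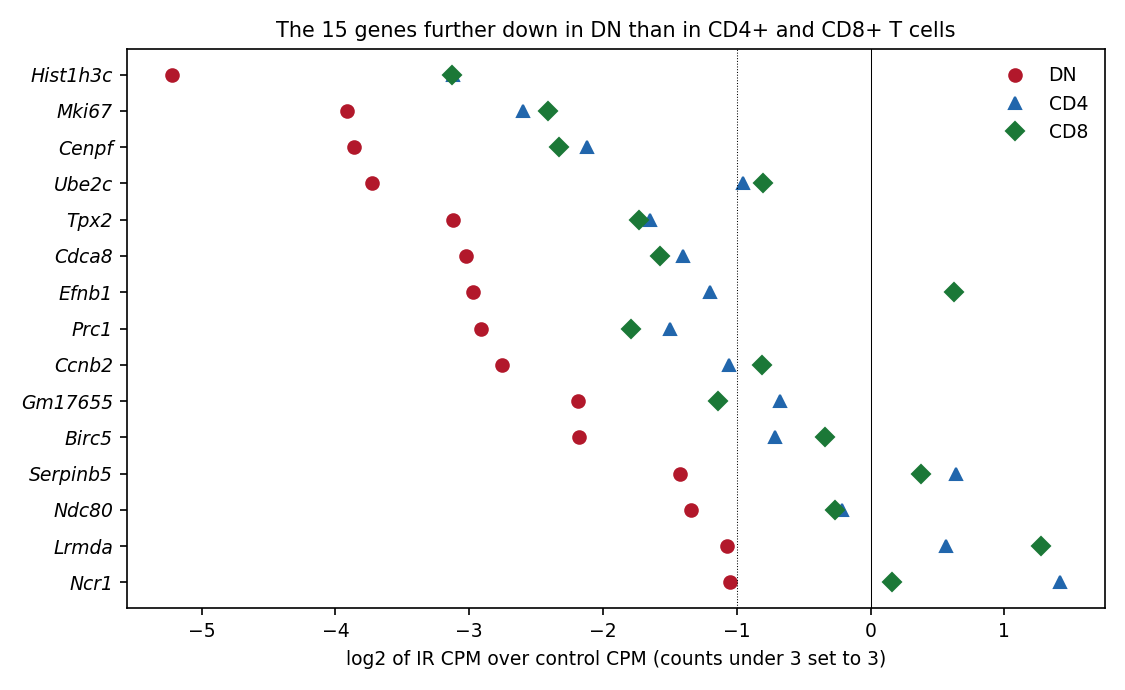
Log2 ratio of IR over control CPM in DN (circles), CD4 (triangles) and CD8 (diamonds) for the 15 lower genes, with a dotted line at a 2-fold decrease. Cell division genes such as Mki67, Cenpf and Tpx2 lie left of 0 in all 3 subsets, whereas Serpinb5, Lrmda and Ncr1 lie left of 0 in DN only. The CD8 point of Ncr1 rests on 2 IR UMIs set to 3, and without this its CD8 level was lower in IR (0.363 and 0.271 CPM).

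Immediate early genes changed to a similar extent in the 3 subsets. Of 18 tested, 9 were higher in IR DN and 0 lower, where the background was 8.19%, and the median log2 ratio was 1.03 for DN, 0.84 for CD4 and 0.86 for CD8. Of the 18, 0 were larger in DN. The AP-1 subunit Junb went from 1951 to 7923 CPM in DN cells, and the orphan nuclear receptor Nr4a1 from 47.6 to 231 CPM. Zfp36, which destabilises cytokine mRNAs, went from 221 to 782 CPM. Fos (1322 to 2062 CPM) and Jun (2236 to 2335 CPM) differed by less than 2-fold. Of 13 NF-kB subunits and feedback inhibitors, 4 were higher and 0 lower: Nfkbia, the inhibitor IκBα (471 to 2159 CPM), Tnfaip3, the deubiquitinase A20 (393 to 1313 CPM), Nfkb2 and Birc3. The count of higher genes was 7 after centring on the median, 6 after centring by intronic length and 3 with the left-out features kept. Their median log2 ratio was 0.84 for DN, 0.56 for CD4 and 0.12 for CD8. Of 8 cytokine signalling suppressors, Socs1 and Socs3 were higher, and the Socs3 ratio was smaller in DN (1.74) than in CD4 (2.79) and CD8 (2.80).

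Heat shock genes were lower in IR DN by about as much as in the other subsets. Of 15 tested, 9 were lower (10.5% over all genes) and 0 higher, and 6 were lower after centring on the median, with a median log2 ratio of −1.21 for DN and −1.17 for both CD4 and CD8. The inducible HSP70 genes Hspa1b (1548 to 143 CPM) and Hspa1a (787 to 78.5 CPM) had the largest differences, and since they are near-identical copies, reads can be divided between them. Thinned shares of cells with Hspa1b were 41.0% in control DN and 4.15% in IR DN. The heat shock letters GAANNTTC stood in 8 of the 12 promoters found for these genes (66.7%), against 6.94% of tested genes. Hspa1b is shown as the gene with the largest difference in the list (chr17:34959239-34959488, minus strand, with GAANNTTC and CCAAT in capitals, the former at 104 to 97 before the start):
Hspa1b: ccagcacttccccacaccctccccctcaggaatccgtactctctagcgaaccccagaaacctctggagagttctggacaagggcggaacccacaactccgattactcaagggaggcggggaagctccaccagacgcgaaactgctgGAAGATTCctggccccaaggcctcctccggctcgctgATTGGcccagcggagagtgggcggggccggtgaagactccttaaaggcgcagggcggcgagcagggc

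Among the pathway lists, cytokine genes had the largest gap between the DN and CD8 medians. Of 11 cytokine genes tested, Ifng (473 to 999.6 CPM), Csf2 and Lta were higher in IR DN and Tnfsf10 and Tnfsf11 lower. Over all genes 8.19% were higher and 10.5% lower, for this list and those that follow. The median log2 ratio was 0.15 for DN, −0.08 for CD4 and −0.65 for CD8, and the DN median turned to −0.025 with the left-out features kept in the totals. The chemokine Ccl5 was the only one of 6 chemokines that was higher, from 1619 to 5238 CPM. Xcl1 went from 802 to 1310 CPM in DN, with a log2 ratio of 0.71 against −0.76 in CD8. Among 13 genes of the TIGIT family and other coinhibitory receptors, Tigit and Cd101 were higher and Cd226, Cd200r1 and Cd244a lower. Cd226, the activating counterpart of Tigit, went from 1190 to 452 CPM and was lower in every subset (log2 ratios of −1.40, −1.90 and −1.77 in DN, CD4 and CD8). Pdcd1 went from 27.2 to 22.8 CPM in DN, less than 2-fold. Of 10 costimulatory genes, Tnfrsf9 (4-1BB, 36.2 to 104 CPM) and Tnfrsf4 (OX40, 8.53 to 27.8 CPM) were higher and Cd226 lower.

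In the lists of migration, residence and lineage genes more genes were lower than higher, which after centring on the median held only for lineage genes. Of 11 chemokine and lipid migration receptors, Cxcr4 (49.5 to 218 CPM) and Cxcr5 were higher, and Cxcr3, Cxcr6 (1122 to 475 CPM), Ccr2 and Ccr4 were among those lower. Of 11 tissue-resident genes, Rgs1 was higher and Itga1, Cxcr6 and Zfp683 lower, with a median of −0.01 that changed sign on centring. S1pr1, which guides exit from tissue, and the transcription factor Klf2, which drives it, changed less in DN than elsewhere: the log2 ratios for DN, CD4 and CD8 were 0.37, 2.08 and 1.78 for S1pr1 and 1.63, 2.27 and 2.22 for Klf2. Among 12 lineage transcription factors, Id3 was higher and Tbx21, Zbtb16 and Tox lower. Of 19 NK receptors and adaptors, 0 were higher and 2 lower (Klra9, a member of a family of near-identical copies, and Clnk). Of 12 BCL2 family genes 5 were higher and 1 lower, with the proapoptotic Bbc3 going from 13.6 to 66.5 CPM. Glycolysis and hypoxia genes had 1 higher and 3 lower of 19, with the glucose transporter Slc2a1 going from 92.4 to 37.2 CPM. Interferon-stimulated genes had 0 higher and 3 lower of 17, and T cell receptor complex genes 0 higher and 2 lower of 14. These shares stand beside 8.19% higher and 10.5% lower over all genes. The counts depended on scaling: from centring to the left-out features kept, lower genes ranged from 2 to 5 for interferon-stimulated genes, 0 to 4 for glycolysis and hypoxia, 0 to 3 for T cell receptor complex genes, 2 to 5 for coinhibitory receptors, 1 to 3 for NK receptors and 2 to 6 for migration receptors. Higher BCL2 family genes numbered 3 with the left-out features kept, and higher costimulatory genes 4 after centring on the median. Of the αβ variable segments only 3 of 163 reached 10 CPM, with 1 higher and 1 lower.

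**Figure D5:**
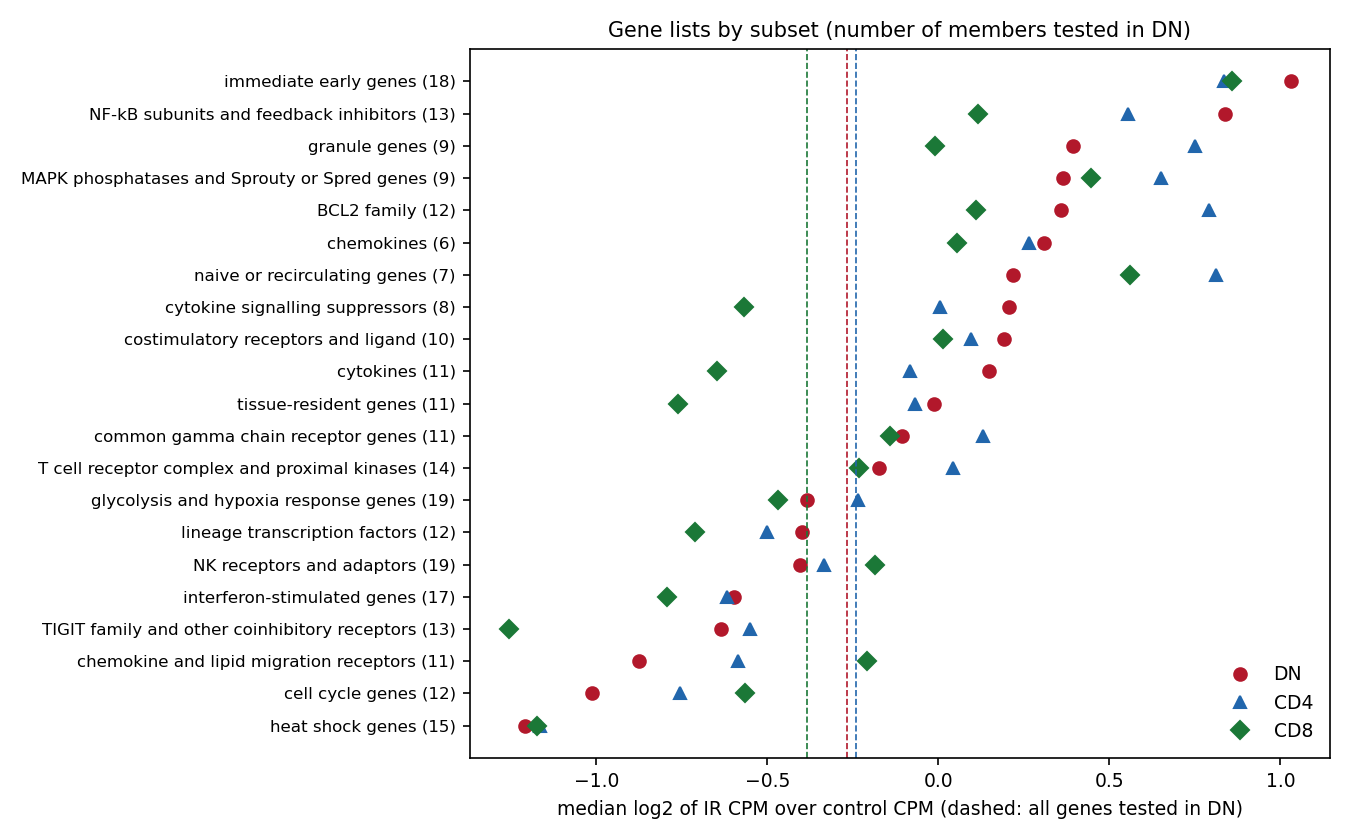
Median log2 ratio of IR over control CPM for gene lists with at least 5 members tested, in DN (circles), CD4 (triangles) and CD8 (diamonds), with dashed lines at the medians of all genes tested. Immediate early genes are highest and heat shock genes lowest in DN, and cytokine genes have the widest gap between DN (0.15) and CD8 (−0.65).

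Summed markers of other cell types differed between IR DN and control DN in both directions. T cell identity genes were tested in full, and of 8 only Ptprc (CD45) was lower (2137 to 1051 CPM), and 0 were after centring. Summed over 11 myeloid markers, DN cells went from 11.8 to 27 CPM, and Adgre1 had 0 UMIs in IR DN. Over 5 erythroid markers the sums were 1.94 and 21.2 CPM, over 7 B cell markers 169 and 116 CPM, and over 9 tubule markers 1.91 and 2.91 CPM. Within these lists, Ms4a1 (0.401 to 15.2 CPM) and Hba-a1 (0.502 to 16.2 CPM) were called higher in DN. The B cell marker Pax5 and 7 of the tubule markers had 0 UMIs in IR DN. In the other libraries the highest sums were 93.3 CPM for myeloid markers in IR CD4 and 427 CPM for erythroid markers in IR CD8. Invariant NKT markers summed to 346 and 195 CPM, and γδ T cell markers, which share constant genes transcribed in αβ cells, to 528 and 341 CPM. Without thinning, kept barcodes with a UMI of a myeloid, B cell or erythroid marker numbered 5642 of 9309 in control DN and 631 of 3951 in IR DN. Deeper cells hold such a UMI more often, and the medians were 8554 and 1520 UMIs. The counts are therefore no measure of other cell types, and leaving these barcodes out removes mostly control cells. Without these barcodes 52 genes were higher and larger in DN, 29 of which were among the 48. There were 29 lower and larger genes, 12 of which were among the 15. The part of other cell types in the results above was not tested.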

How the data were processed

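Raw UMI counts per gene and barcode were used as deposited. Per the labels and the study's methods, the authors sorted live CD45+ TCRβ+ kidney cells, prepared 10x 3′ v3.1 libraries and made the filtered count matrices with Cell Ranger and mm10. The file headers name version 5.0.1 for the control and 6.0.1 for the IR matrices. The study's methods name default settings, without stating how intronic reads and strand were treated. Of 32285 features, 32235 (99.8%) were matched to GENCODE annotation on GRCm38, and 104 mitochondrial, ribosomal protein and Malat1 features were left out of totals.

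Barcodes with at least 500 genes, at most 20% mitochondrial UMIs and at least 1 Cd3 UMI were summed per library, and doublets were not called. Each of the 6 groups held 1 library, so no test and no p-value was computed. Sums carry exact Poisson and shares exact Clopper-Pearson 95% intervals for counting error only. Shares were taken after each cell was thinned to 500 UMIs of the retained features, which dropped no cell. Ratios with a count under 3 used 3. The rule for named genes took Dusp1, Il7r and Tigit, the 12 protein-coding genes (at 50 CPM or more, otherwise 10 CPM) and 3 others that exceeded CD4 and CD8 most in each direction, genes opposite between subsets, and from each of 31 gene lists up to 4 members larger in DN or otherwise the 2 with the largest DN ratio. The other genes named were chosen after their values were seen. The members and lists were chosen with earlier results of these data known. Alternatives covered TMM scaling (edgeR 4.0.16), centring, cell filters, depth and thresholds. Python 3.11.15, numpy 2.4.6, pandas 2.3.3, scipy 1.17.1 and R 4.3.3 were used, and the calls were tested on simulated data. Promoters came from RefSeq (GRCm38.p6).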

Additional observations from a re-analysis of the deposited data

Results flagged for a closer look

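Tigit and Cd101 moved in opposite directions in DN and CD8 cells. The log2 ratio of IR over control for Tigit was 1.831 with DN cells, 0.79 with CD4 cells and −1.10 with CD8 cells. For Cd101 they were 1.609 (DN), 0.64 (CD4) and −1.45 (CD8). With 1 library per group the difference between the subsets was not tested.

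Apod appeared in barcodes that the comparisons did not use. Of 423 IR DN barcodes without a Cd3 UMI, 56 (13.239%) held an Apod UMI. In control DN it was 0 of 78, which at 3 counts allows a share of up to 3.85%. The shares were 10.6% of 452 such barcodes in IR CD4 and 12.6% of 414 in IR CD8. Among kept IR DN cells 7 held an Apod UMI.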

How the results depend on the processing

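No paired analysis was possible because each group had 1 library, and for the same reason no library could be left out in turn. The genes higher and larger in DN numbered 48, and 31 with TMM scaling, 111 with no Cd3 UMI needed, 1117 with no minimum CPM, 9 at a minimum of 50 CPM, 123 at a 1.5-fold and 6 at a 4-fold difference. With nearly equal IR totals set aside there were 24, and 16 with shared barcodes left out as well, both chosen after seeing the data. In cells thinned to 500 UMIs they numbered 58, of which 19 were among the 48. The genes lower and larger in DN numbered 15, and 9 with the top 5% of barcodes removed, 29 without barcodes holding a marker of another cell type, 36 in cells thinned to 500 UMIs (6 of the 15 among them), 8 as a mean over cells, 90 with no minimum CPM, 0 at 50 CPM, 33 at 1.5-fold and 2 at 4-fold. All calls numbered 756 higher and 967 lower, and 492 and 1463 with the left-out features kept, 5759 and 1574 with no minimum and 320 and 506 at 50 CPM. Lower calls were 436 after centring on the median and 367 after centring by intronic length. The thresholds change these numbers by construction, and for the other alternatives the cause was not tested.

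The difference in the share of positive cells, IR DN minus control DN, was 44.033 percentage points for Dusp1, 42.174 at 1000 UMIs of all features and 5.354 without thinning. For Il7r it was 19.13, 25.358 at 1000 retained UMIs, 21.614 at 1000 UMIs of all features and 11.004 without thinning. Without thinning it reversed to −1.767 for Tigit, −2.233 for Spry2 and −7.928 for Csf2, where the deeper control cells had more positive cells. Of 1204 alternative log2 ratios of 67 named genes, 0 changed sign, and 205 fell outside the counting interval. Of 1200 differences between the DN and the nearer of the CD4 and CD8 ratios, 9 changed sign. In thinned cells these were Tubb2b (−0.65), Rgs7bp (−0.474), Gm48606 (−0.673), Cenpf (0.699), Tpx2 (1.02) and Hist1h3c (1.763). Hist1h3c was at 2.447 and Cdca8 at 0.316 with the top 5% of barcodes removed, and Hist1h3c at 0.363 as a mean over cells.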
